A study of Homo sapiens with 15 samples.

Results

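The genes described here take up, store, make, carry, sense and destroy retinoids, the vitamin A compounds whose active form is retinoic acid. They are the 9 genes LRAT, CYP26A1, RARB, RARA, DHRS3, STRA6, CRABP1, CRABP2 and ALDH1A2, taken by symbol from the 60675 genes listed in the series, and all 9 were abundant enough to be tested among 19012 genes. Their RNA was counted in 15 libraries from the established human embryonic stem cell line H9 (wild type), collected on day 7 of osteogenic differentiation. Each of 5 groups held 3 libraries. UNT received DMSO vehicle at 0.1%. FPM_IC25 and FPM_IC50 received fine particulate matter at 0.00062 and 1.4 µg/mL, and SRM_IC25 and SRM_IC50 received a NIST standard reference material at 0.003 and 5.9 µg/mL. Every group was grown with 15% serum, with exposure from day 0 and with ascorbic acid, β-glycerophosphate and vitamin D3 added from day 5. All groups are 1 cell line, and the labels do not say whether replicates were separate cultures, so p-values rest on the spread between these samples alone, and that spread may be technical.

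Retinol enters cells through the receptor STRA6 or by diffusion and is stored as esters made by LRAT. It is otherwise oxidised reversibly to retinal, a step that DHRS3 runs backwards, and then irreversibly to retinoic acid by ALDH1A2 and its relatives. CRABP1 and CRABP2 carry retinoic acid inside the cell, CYP26A1 breaks it down, and RARA and RARB are receptors that bind DNA with RXR partners and switch genes on when retinoic acid binds. Several of these genes, among them RARB, CYP26A1, DHRS3, LRAT and STRA6, are themselves known targets of retinoic acid. In pluripotent stem cells retinoic acid is known as a strong differentiation signal.

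The receptors recognise pairs of a short motif (AGGTCA or AGTTCA or GGGTCA or GGTTCA) set head to tail, classically with 5 bases between them. Such pairs with a spacing of 5, 2 or 1 bases were looked for on both strands of the RefSeq promoter windows (GRCh38.p14), each running from 250 bases before a transcript start through its first 50 bases. All 9 genes had a window, 22 windows in all, and 2 genes, RARB and CYP26A1, held a pair, in both cases with the spacing of 5. Both sequences are shown because these are the 2 members with the pair and they moved in opposite directions at the high SRM dose. The capitals mark the paired motifs, and CYP26A1 is written on the strand opposite the gene so that both read the same way.
RARB: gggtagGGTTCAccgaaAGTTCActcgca
CYP26A1: acaattAGTTCAcccaaAGTTCAtcttta
The RARB stretch is chr3:25428204-25428232, on the gene's strand, and its pair lies 53 to 37 bases before a start inside the gene, in an intron of longer transcripts. The CYP26A1 stretch is chr10:93073797-93073825 and its pair lies 90 to 74 bases before the start, in the first exon of a longer transcript. Over the 17 bases of the pair the sequences were identical at 15, and differed by G1A and G9C from RARB to CYP26A1, counted from 1 at the 5′ end of the pair. A pair spaced by 5 was found in 31 of 35116 windows (0.0883%), by 2 in 14 (0.0399%) and by 1 in 46 (0.131%). One of the 3 was in 91 windows (0.259%), so no window held more than 1 kind. A single copy of the motif was in 38.6% of windows. A match is a description of the letters and not a binding site.

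Total counts were 9.34 to 58.2 M (M, mega) per library, and 3 counts, the least taken as detected, were 0.0504 to 0.309 CPM (read counts scaled by library size with TMM). The FPM libraries stood apart: genes annotated as antisense took 0.942% to 1.499% of counts in the 6 FPM libraries, against 0.282% ± 0.00769 (SD, n = 3) in UNT and a range of 0.288% to 0.319% over the 6 SRM libraries. Exons of RARB, RARA, STRA6, CRABP1 and ALDH1A2 overlap exons of a gene on the other strand, over 0.757%, 11.8%, 7.02%, 47.2% and 4.11% of their exonic bases, so FPM values of these genes are uncertain, most of all for CRABP1. CYP26A1 and DHRS3 have no such gene within 5 kb. Of 7 osteoblast markers, summing to 422 to 535 CPM in UNT and 587 to 721 CPM at SRM_IC50, 2 were not abundant enough to be tested: IBSP, a bone matrix gene, had at most 3 counts in any group's 3 libraries together, and BGLAP, which encodes osteocalcin, lay at or below 0.543 CPM. The bone matrix gene SPP1 (mean of 374 CPM) and the alkaline phosphatase gene ALPL (88.3 CPM) made up most of the sum in UNT. The 5 tested markers went both ways at SRM_IC50. Means of SPP1 (472 CPM), ALPL (162 CPM) and SP7 (0.817 to 1.52 CPM) were higher than in UNT. Those of RUNX2 (5.40 to 3.73 CPM) and DLX5 (19.9 to 9.05 CPM) were lower. The edgeR test defined below called 1 of the 5 higher and 1 lower, where 17.6% of all genes were called. Summed CPM of 8 pluripotent markers was 1430.8 to 1557 in UNT.

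At the high SRM dose the retinoid genes changed in both directions, and at the other exposures 1 change passed the test, a fall of CYP26A1 at FPM_IC25. A gene is called where edgeR's quasi-likelihood test, adjusted over all 19012 genes by Benjamini-Hochberg, gives an adjusted p under 0.05. At SRM_IC50 against UNT, 4 members were higher (LRAT, CYP26A1, CRABP1, ALDH1A2) and 2 were lower (RARB, DHRS3), that is 6 of 9, while 17.6% of all genes tested were called (7.96% higher and 9.59% lower). The same 6 had no overlap between the libraries of the 2 groups, as had 29.7% of all genes. The median log2 fold change of the 9 was 0.19, against 0.00 over all genes. At SRM_IC25 against UNT none was called (4.37% of all genes were), and 2 had an unadjusted p under 0.05 (LRAT and STRA6). DESeq2 gave an adjusted p to 7 of the 9 members there and called 1, STRA6. Over all genes it called 2007 of the 11495 that it tested. LRAT and STRA6 were also the 2 members without overlap (25.6% of all genes). At FPM_IC50 against UNT none was called (13.6% of all genes); 2 had an unadjusted p under 0.05 (RARB and CRABP1) and DESeq2 called 1, CRABP1. The 2 groups did not overlap for CYP26A1, RARB, RARA and CRABP1, 4 members (26% of all genes). At FPM_IC25 against UNT CYP26A1 alone was called, as lower (14.2% of all genes, 3.51% lower), and it was also the 1 member without overlap (31.4%). These 4 comparisons share the UNT libraries. The FPM shares over all genes depend on which genes are counted. Among 4239 genes that lack an opposite-strand gene within 5 kb, 1 was called at FPM_IC50 and 35 at FPM_IC25, against 1051 at SRM_IC50. Fewer calls among the members than over all genes at FPM are thus not read as a weaker response. Across all 5 groups in 1 F test, 7 of 9 members were called, against 40.8% of all genes; RARA (adjusted p = 0.0523) and CRABP2 (adjusted p = 0.0669) were not.

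**Figure D1:**
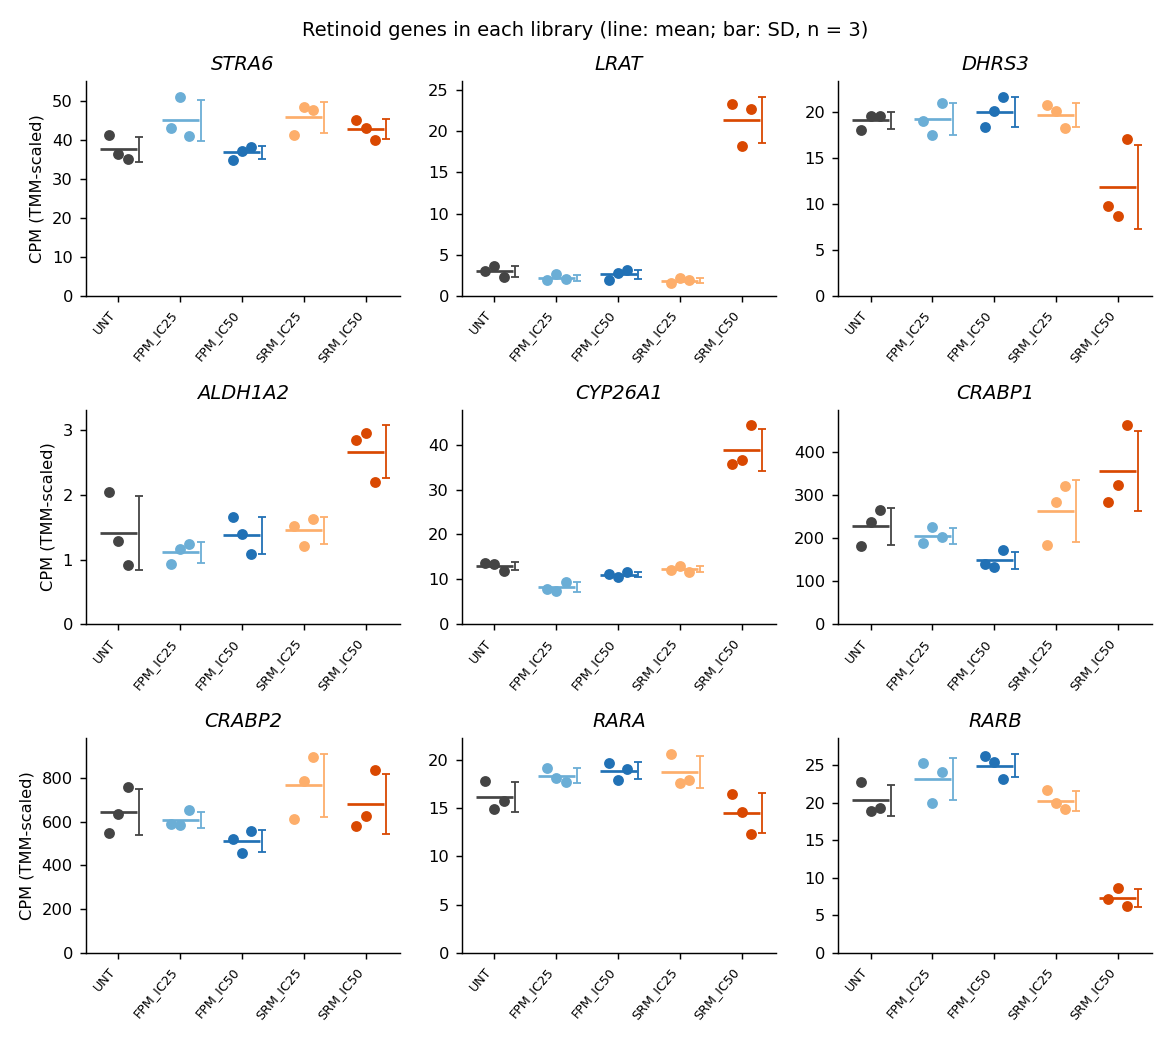
CPM (TMM-scaled, linear axis from 0) of each retinoid gene in each of 15 libraries by group; points are libraries, lines group means and bars SD (n = 3). LRAT and CYP26A1 stand above and RARB below the other 12 libraries at SRM_IC50, while DHRS3 has 1 SRM_IC50 library close to UNT.

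Among uptake and storage genes, LRAT rose most. LRAT (lecithin retinol acyltransferase, ENSG00000121207, GRCh38 chromosome 4, 154626945 to 154753118) was at 2.99, 3.58 and 2.32 CPM in UNT, 1.85, 2.60 and 2.08 at FPM_IC25, and 1.95, 2.78 and 3.08 at FPM_IC50. It was at 1.51, 2.14 and 1.87 CPM at SRM_IC25 and at 23.3, 18.2 and 22.7 at SRM_IC50. Each SRM_IC50 library was above each of the other 12, and the remaining groups lay between 1.51 and 3.58. At SRM_IC50 the mean was 21.4 ± 2.78 CPM against 2.96 ± 0.633 in UNT (SD, n = 3), 7.20-fold higher, a difference of 2.85 on the log2 scale (SE 0.186, edgeR adjusted p = 4.53e-08). The rise rests on 258 to 688 counts per SRM_IC50 library, and a gene on the other strand within 5 kb, ENSG00000249041, had no count. At SRM_IC25 the level was below each UNT library, with a log2 difference of -0.63 that was not called (adjusted p = 0.0958).

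STRA6, the membrane receptor for the retinol carrier protein (ENSG00000137868, chromosome 15, 74179466 to 74212267), kept to a narrow range. It was at 41.1, 36.3 and 35.1 CPM in UNT and at 45.1, 43.1 and 40.002 at SRM_IC50, ranges that overlap. The other groups lay at 42.9, 51.0 and 41.0 CPM (FPM_IC25), 34.9, 37.2 and 38.2 (FPM_IC50) and 41.2, 48.3 and 47.6 (SRM_IC25). The log2 fold change at SRM_IC50 was 0.19 (95% interval -0.02 to 0.40, adjusted p = 0.240), so a rise beyond 0.40 is outside the interval. Its F test over the groups passed (adjusted p = 0.0417), but no single comparison did with edgeR.

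DHRS3 fell in 2 of the 3 SRM_IC50 libraries. This short-chain dehydrogenase turns retinal back into retinol (ENSG00000162496, chromosome 1, 12567910 to 12617731). Its levels were 18.01, 19.6 and 19.6 CPM in UNT and 9.73, 8.65 and 17.1 at SRM_IC50. Across the other 9 libraries it lay between 17.5 and 21.5 CPM. The groups did not overlap, but replicate 3 of SRM_IC50 sat just below UNT while the other 2 were far lower. The log2 fold change was -0.73 (SE 0.18, adjusted p = 0.00901). The call was lost without SRM_IC50 replicate 1 (adjusted p = 0.0581) or replicate 2 (adjusted p = 0.0599).

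ALDH1A2, which makes retinoic acid from retinal (ENSG00000128918, chromosome 15, 57953424 to 58497866), was the member with the fewest counts, 9 to 84 per library. It was at 2.04, 1.29 and 0.915 CPM in UNT and at 2.85, 2.95 and 2.198 at SRM_IC50. The lowest SRM_IC50 library was barely above the highest UNT library. Over the other 9 libraries the gene lay between 0.926 and 1.66 CPM. The log2 difference at SRM_IC50 was 0.91 (SE 0.257, adjusted p = 0.0207), a call kept in 9 of 14 alternatives and lost without UNT replicate 2 (adjusted p = 0.0795) or 3 (0.0976), or SRM_IC50 replicate 1 (0.0770) or 2 (0.0747).

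CYP26A1, the cytochrome P450 that clears retinoic acid, rose at SRM_IC50 and fell at FPM_IC25. The gene (ENSG00000095596, chromosome 10, 93073475 to 93077890) was at 13.7, 13.5 and 11.95 CPM in UNT, 12.1, 12.9 and 11.7 at SRM_IC25 and 35.8, 36.6 and 44.3 at SRM_IC50. It was at 7.82, 7.29 and 9.43 CPM at FPM_IC25 and at 11.2, 10.4 and 11.6 at FPM_IC50. SRM_IC50 was the highest group and FPM_IC25 the lowest, and neither overlapped any other group. At SRM_IC50 the log2 fold change was 1.57 (SE 0.115, adjusted p = 1.38e-07) or 2.97-fold, from 504 to 1055 counts per library. At FPM_IC25 it was -0.65 (SE 0.121, adjusted p = 0.000898), with means of 8.18 ± 1.11 CPM against 13.03 ± 0.940 in UNT (SD, n = 3). No gene on the other strand lies within 5 kb of CYP26A1, and the fall was called in all 16 alternatives, with adjusted p from 0.000153 to 0.0464. The FPM libraries also differed from UNT in antisense share (0.942% to 1.499% against a mean of 0.282%). These alternatives do not separate that library difference from the exposure. At FPM_IC50 all 3 libraries were below UNT, but the log2 difference of -0.24 was not called (adjusted p = 0.247), and between the FPM doses the difference of 0.41 was not called either (adjusted p = 0.695).

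The 2 retinoic acid carriers were by far the most abundant members. CRABP1 (ENSG00000166426, chromosome 15, 78340324 to 78348230) was at 181, 238 and 264 CPM in UNT and at 284, 323 and 461 at SRM_IC50. It was at 188, 225 and 202 CPM at FPM_IC25, 140, 133 and 171 at FPM_IC50, and 183, 283 and 322 at SRM_IC25. The SRM_IC50 libraries lay above UNT but overlapped SRM_IC25, and the FPM_IC50 libraries lay below UNT. The log2 fold change at SRM_IC50 was 0.65 (SE 0.204, adjusted p = 0.0378), and this call depended on single libraries. It was lost without UNT replicate 1 (adjusted p = 0.138) or 2 (0.0833), without SRM_IC50 replicate 2 (0.0536) or 3 (0.153), and without the 6 FPM libraries (0.0891). At FPM_IC50 the log2 fold change was -0.62 (edgeR adjusted p = 0.0584), and it was called in 6 of 15 alternatives. With all libraries kept, it passed with DESeq2 (adjusted p = 0.0424), no filter on low counts (5.13e-07), a block on replicate number (0.00151) and a GC correction (0.036). It also passed without UNT replicate 1 (0.0212) or FPM_IC50 replicate 3 (0.0491).

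The gene across from CRABP1, ENSG00000279694, moved with the FPM groups. It was at 0.647, 0.529 and 0.671 CPM in UNT, at 36.3, 35.1 and 25.7 at FPM_IC25 and at 31.6, 19.97 and 29.2 at FPM_IC50. In the 6 SRM libraries it lay between 0.441 and 1.72 CPM. Its counts were 12.7% to 22.5% of those of CRABP1 in the FPM libraries and 0.155% to 0.608% in the other 9. With both genes' counts added together, the log2 fold change at FPM_IC50 was -0.38 (adjusted p = 0.275) and at SRM_IC50 it was 0.64 (adjusted p = 0.0380). A setting of this kind was chosen after the data were seen.

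**Figure D2:**
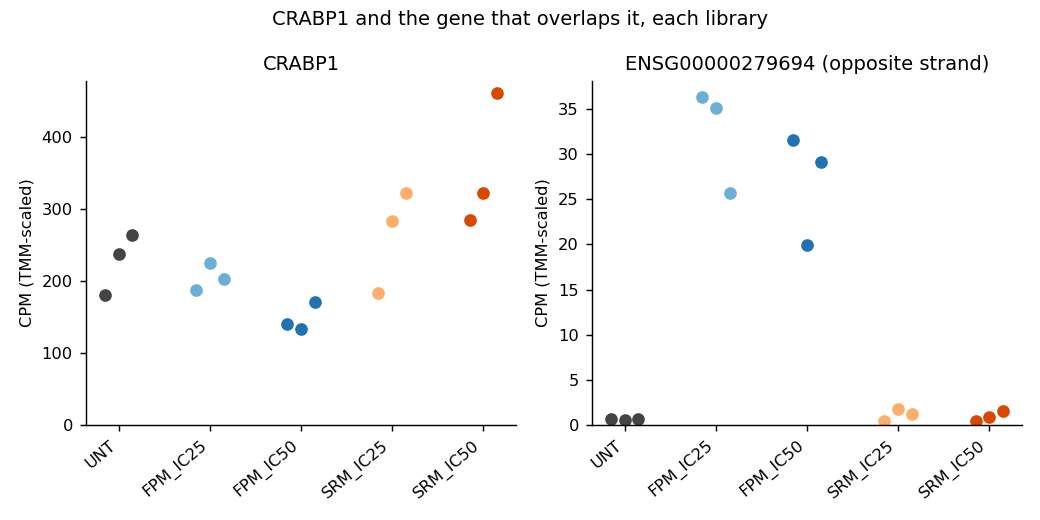
CPM (TMM-scaled, linear axes from 0) of CRABP1 (left) and of ENSG00000279694, whose exons overlap it on the opposite strand (right), with 1 point per library in 5 groups. The overlapping gene lies between 19.97 and 36.3 CPM in the 6 FPM libraries and below 1.8 in the others.

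CRABP2, the carrier that hands retinoic acid to the receptors (ENSG00000143320, chromosome 1, 156699606 to 156705816), did not pass edgeR's test in any comparison. It was at 548, 634 and 758 CPM in UNT and at 578, 625 and 835 at SRM_IC50, ranges that almost coincide. The other groups ran from 585 to 652 CPM (FPM_IC25), 455 to 558 (FPM_IC50) and 611 to 898 (SRM_IC25). The log2 fold change at SRM_IC50 was 0.07 (95% interval -0.27 to 0.41, adjusted p = 0.842). At FPM_IC50 it was -0.34 (adjusted p = 0.209), and with no filter on low counts CRABP2 was called lower there (-0.35, adjusted p = 0.0195).

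Of the receptors, RARB fell and RARA did not pass against UNT. RARB (retinoic acid receptor beta, ENSG00000077092, chromosome 3, 25174332 to 25597932) was at 22.7, 18.9 and 19.3 CPM in UNT and at 7.15, 8.601 and 6.15 at SRM_IC50. It was at 25.3, 20.003 and 24.1 CPM at FPM_IC25, 26.2, 25.4 and 23.2 at FPM_IC50, and 21.7, 19.9 and 19.1 at SRM_IC25. The SRM_IC50 libraries lay below each of the other 12, and the FPM_IC50 libraries just above UNT. At SRM_IC50 the mean was 7.30 ± 1.23 CPM against 20.3 ± 2.07 in UNT (SD, n = 3), a difference of -1.46 on the log2 scale (SE 0.13, adjusted p = 8.41e-07). RARB thus fell while CYP26A1, the other member with a motif pair in its window, rose.

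RARA, the receptor alpha (ENSG00000131759, chromosome 17, 40309192 to 40357643), was at 17.9, 14.9 and 15.7 CPM in UNT and at 16.5, 14.7 and 12.3 at SRM_IC50. The other 9 libraries lay between 17.7 and 20.7 CPM. At SRM_IC50 the log2 difference from UNT was -0.15 (95% interval -0.39 to 0.09, adjusted p = 0.455). In this comparison and this fit a fall of RARA beyond 0.39 was outside the interval, short of the fall of RARB.

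**Figure D3:**
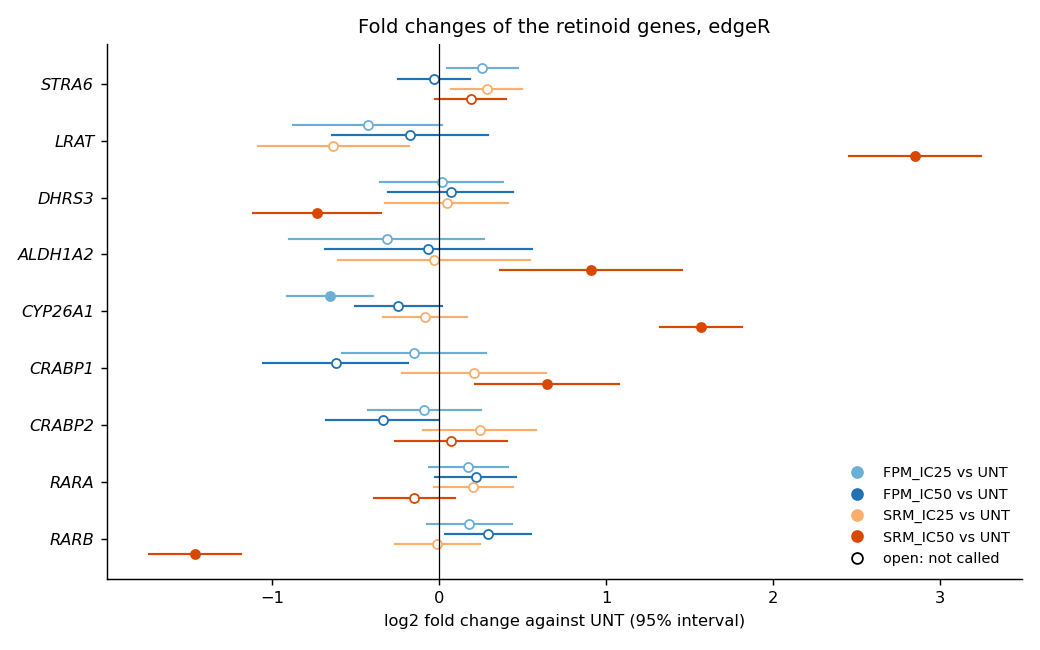
Log2 fold changes (edgeR, x axis) of the 9 genes against UNT for the 4 exposures, with 95% intervals; filled points are called (adjusted p under 0.05) and open points are not. The filled points are 6 genes at SRM_IC50 and CYP26A1 at FPM_IC25.

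Between the SRM doses 3 members were higher at SRM_IC50 (LRAT 3.48, CYP26A1 1.66 and ALDH1A2 0.94 on the log2 scale) and 3 were lower (RARB -1.45, DHRS3 -0.78 and RARA -0.35), that is 6 of 9 where 26.9% of all genes tested were called (13.7% higher and 13.2% lower). The same 6 had no overlap between the SRM doses, as had 37.7% of all genes. The adjusted p (edgeR) was 6.99e-09 for LRAT, 5.73e-08 for CYP26A1 and 6.3e-07 for RARB, and 0.00411 for DHRS3, 0.0111 for ALDH1A2 and 0.0285 for RARA. RARA kept its call in 7 of 16 alternatives and lost it without SRM_IC25 replicate 1 (adjusted p = 0.105), SRM_IC50 replicate 2 (0.0734) or SRM_IC50 replicate 3 (0.0957); ALDH1A2 lost its call without SRM_IC25 replicate 2 (0.0855). CRABP1 differed by 0.44 (adjusted p = 0.130). Between the FPM doses none of the 9 was called by edgeR or DESeq2 (0.0105% of all genes were, by edgeR), and 3, CYP26A1, STRA6 and CRABP1, had an unadjusted p under 0.05. With CRABP2 these made 4 members without overlap between the FPM doses (8.57% of all genes).

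Whether the dose step differed between the particles was tested as an interaction, the SRM_IC50 minus SRM_IC25 difference less the FPM_IC50 minus FPM_IC25 difference, although the doses themselves are not matched. It was called for 5 of 9 members, against 14.6% of all genes, with 3 differences above 0 (6.59% of all genes) and 2 below (8.01%). The difference was 3.23 on the log2 scale for LRAT (SE 0.29, adjusted p = 2.65e-06), 1.25 for CYP26A1 (SE 0.169, adjusted p = 0.000116) and -1.57 for RARB (SE 0.177, adjusted p = 2.03e-05). It was -0.83 for DHRS3 (adjusted p = 0.0359) and 0.91 for CRABP1 (adjusted p = 0.0455). The last 2 were fragile: DHRS3 was called in 12 of 22 alternatives and CRABP1 in 10 of 21, and with the counts of the opposite gene added CRABP1 was at 0.88 (adjusted p = 0.0529). LRAT, CYP26A1 and RARB were called in each alternative run for this test (21, 22 and 21).

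Levels of different genes were compared only per length, as the deposited FPKM (fragments per kilobase, scaled by library size). In UNT the order was CRABP2 (569 ± 78.2 FPKM; SD, n = 3), CRABP1 (222 ± 35.9), DHRS3 (6.08), RARB (5.34), STRA6 (4.74), CYP26A1 (4.26), RARA (3.32), LRAT (0.381) and ALDH1A2 (0.161). Neighbours from DHRS3 to CYP26A1 in that order overlapped in their libraries; the other neighbours did not. At SRM_IC50 the order below the 2 carriers was CYP26A1 (12.8 ± 1.07 FPKM), STRA6 (5.48), DHRS3 (3.797), RARA (3.02), LRAT (2.79), RARB (1.95) and ALDH1A2 (0.306). There STRA6, DHRS3, RARA and LRAT overlapped from neighbour to neighbour. CYP26A1 was thus sixth in UNT and the third at SRM_IC50, and RARB the fourth and then the eighth, as a description of the same values.

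A wider list of 71 other genes of retinoid uptake, metabolism, binding, signalling and response was counted in the same fit, and 50 were abundant enough to be tested. At SRM_IC50 against UNT, 5 were higher and 10 lower, 30% of the 50 (17.6% of all genes), with a median log2 fold change of -0.13. At SRM_IC25 none was called by edgeR (4.37% of all genes). DESeq2 called 4 of the 31 list genes that it tested there, and 2007 of 11495 genes in all. At FPM_IC50 1 was higher and 1 lower, 4% of the 50 (13.6% of all genes), and at FPM_IC25 2 were lower, also 4% (14.2% of all genes). Among the 4239 genes without an opposite-strand gene within 5 kb, 0 of 15 list genes were called at either FPM dose. Over all of those genes 1 was called at FPM_IC50 and 35 at FPM_IC25. Between the SRM doses 6 were higher and 15 lower at SRM_IC50, 42% of the 50 (26.9% of all genes). The gene higher at FPM_IC50 was RBP5, a retinol-binding protein gene at under 1 CPM (log2 2.18, adjusted p = 0.0148, called in 8 of 12 alternatives). For the retinol carriers RBP4 and TTR, which are made mainly by liver and yolk sac type cells, counts were too low to test (group means of 0.352 and 0.194 CPM in UNT).

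Of the enzymes, RDH10, which runs the first oxidation of retinol, fell at SRM_IC50 from 28.2 ± 4.67 to 12.6 ± 1.41 CPM (SD, n = 3), a difference of -1.17 on the log2 scale (adjusted p = 0.000262). ALDH1A1, which oxidises retinal to retinoic acid, fell from 34.3 ± 6.22 to 10.45 ± 1.36 CPM (log2 -1.70, adjusted p = 0.00212), the opposite direction to ALDH1A2. ALDH1A3, another gene of that family, was 0.29 and not called (adjusted p = 0.133). Per length ALDH1A1 was at 11.6 FPKM in UNT, far above ALDH1A2 at 0.161, and at 3.62 against 0.306 at SRM_IC50. CYP26C1, a relative of CYP26A1 with the same activity, rose from 13.2 ± 2.48 to 23.7 ± 2.52 CPM (log2 0.85, adjusted p = 0.00120), and CYP26B1 was -0.60 (adjusted p = 0.153) at under 1 CPM. SCARB1, a scavenger receptor that takes up carotenoids, rose by 0.67 on the log2 scale (adjusted p = 0.000198). ALDH1A1 also fell at FPM_IC25, to 16.5 ± 8.67 CPM (log2 -1.06, adjusted p = 0.0413), as did FABP5, another retinoic acid carrier (log2 -0.50, adjusted p = 0.0446). Both calls were fragile, kept in 6 of 14 alternatives for ALDH1A1 and in 4 of 14 for FABP5. ALDH1A1 lost its call without UNT replicate 2 (adjusted p = 0.0840) or 3 (0.145) or FPM_IC25 replicate 2 (0.0956), and FABP5 without UNT replicate 2 (0.184) or 3 (0.199) or without any 1 of the FPM_IC25 libraries (0.0828 to 0.134).

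None of the other 4 receptor genes was called at SRM_IC50: RARG was 0.14 (adjusted p = 0.334), RXRA -0.22 (0.0928), RXRB -0.07 (0.622) and RXRG 0.83 (0.297, at under 1 CPM). RXRA was the nearest of them to the threshold. Of 6 coregulators NCOA3, a receptor coactivator, was lower (-0.61, adjusted p = 0.0425), a call kept in 7 of 15 alternatives. The adjusted p was 0.169 and 0.0824 with UNT replicates 1 and 2 left out in turn, 0.0724 and 0.133 with SRM_IC50 replicates 2 and 3 left out in turn, and 0.107 without the 6 FPM libraries.

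Genes listed as retinoic acid targets went both ways at SRM_IC50, with 3 higher and 7 lower of 16 tested, 62.5% where 17.6% of all genes were called (7.96% higher and 9.59% lower). The largest falls were in TGM2, a transglutaminase (144.6 ± 12.2 to 31.8 ± 4.49 CPM, log2 -2.19, adjusted p = 7.51e-08), and in the homeobox genes MEIS1 (42.8 ± 2.66 to 9.28 ± 1.79 CPM, log2 -2.18), CDX2 (-2.08) and CDX1 (-1.66). HOXB2, a hindbrain homeobox gene, fell by 1.16, the nuclear receptor gene NR2F2 by 0.85 and MEIS2 by 0.66 on the log2 scale. RET, a receptor tyrosine kinase gene, rose from 2.21 ± 0.564 to 6.32 ± 1.06 CPM (log2 1.52, adjusted p = 0.000286), HOXB1 rose by 0.60 and NR2F1 by 0.41, while NR2F1 fell at FPM_IC50 by 0.37 (adjusted p = 0.0460). The fall of NR2F1 was called in 5 of 14 alternatives and lost without UNT replicate 1 (adjusted p = 0.0629), 2 (0.0843) or 3 (0.125) or FPM_IC50 replicate 2 (0.113) or 3 (0.184). Without UNT replicate 2 the SRM_IC50 rises of HOXB1 (adjusted p = 0.0572) and NR2F1 (0.0691) were not called. TGM2, MEIS1, RDH10, HOXB2, NR2F1 and FABP5 share exonic bases with a gene on the other strand, which leaves their FPM values uncertain.

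**Figure D4:**
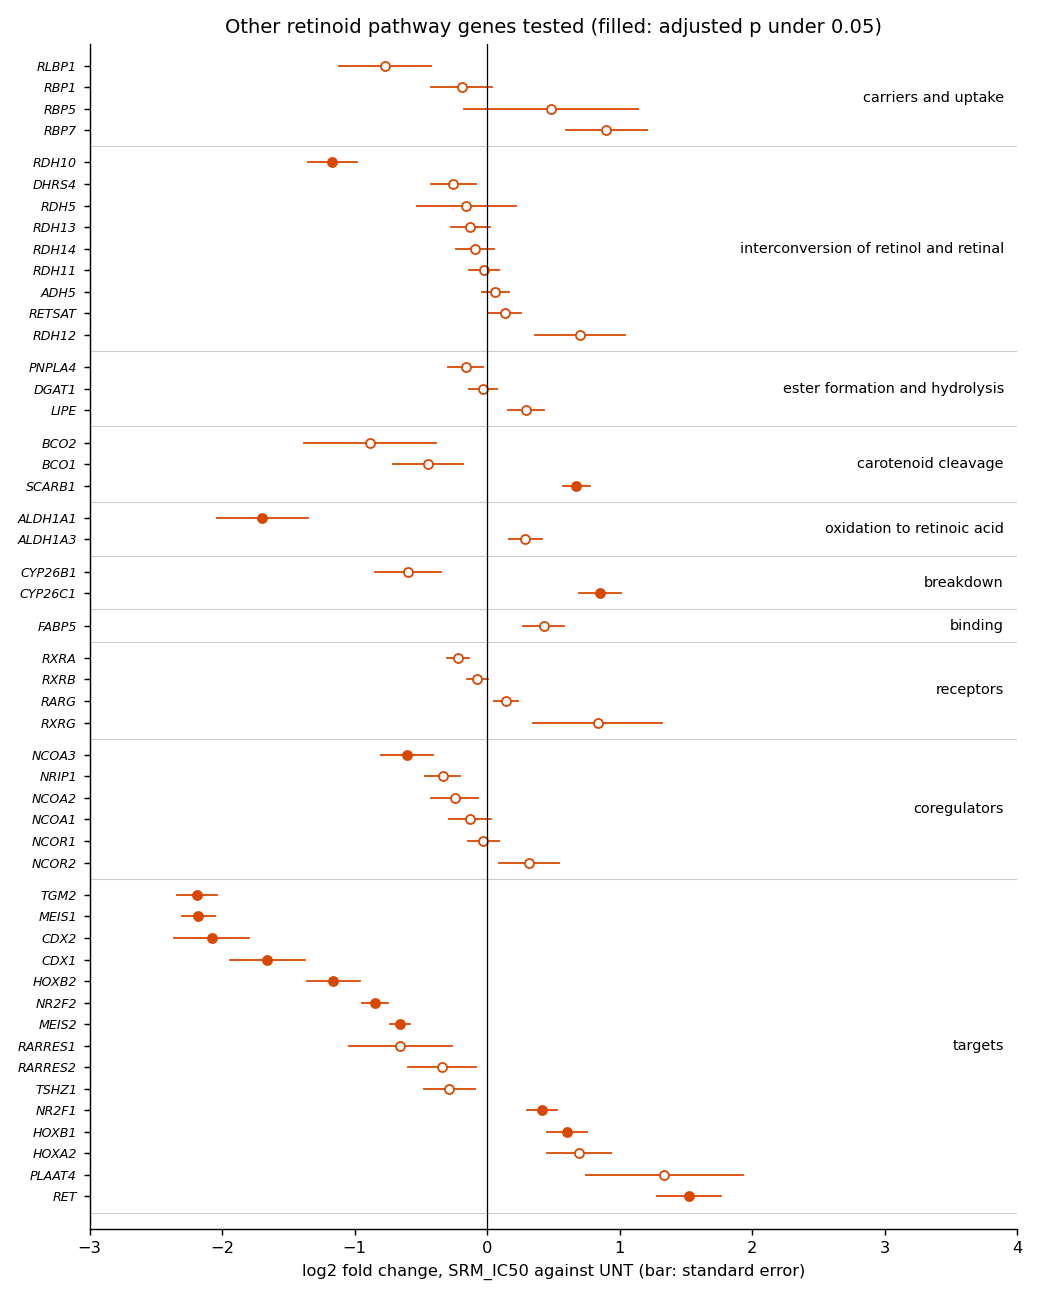
Log2 fold change at SRM_IC50 against UNT (x axis; bars are standard errors) of 49 of the 50 other retinoid pathway genes tested, grouped by role; filled points are called (adjusted p under 0.05). Targets hold 10 of the 15 called genes, 3 higher and 7 lower.

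Markers of cell types moved with these groups. At SRM_IC50, where 17.6% of all genes were called, 7 of 8 pluripotent markers were higher than in UNT and none lower. Their summed level was 2247.5 to 2736 CPM against 1430.8 to 1557. Of 12 amnion and trophoblast markers 12 were lower, with summed levels of 419 to 482 CPM against 1960 to 2310. Of 8 neuroectoderm and eye field markers 6 were lower (246 to 259 CPM against 411 to 447), and of 7 hindbrain and neural crest markers 5 were higher and 1 lower (403 to 452 CPM against 278 to 339). HOXB1 is in that last list too. Other lists were mixed: 2 of 8 mesenchyme markers were higher and 3 lower. Of 4 paraxial and intermediate mesoderm markers tested 1 was higher and 2 lower, and of 5 osteoblast markers tested 1 was higher and 1 lower. The 8 endoderm and yolk sac markers summed to 5.497 to 8.97 CPM against 2.69 to 5.24, with up to 2 of them at 0 in a library. At FPM_IC25, where CYP26A1 and ALDH1A1 were lower, 6 of 8 neuroectoderm markers (177 to 287 CPM) and 4 of 8 pluripotent markers (1029 to 1051 CPM) were lower. There 4 of 8 mesenchyme markers were higher (930 to 954 CPM against 760 to 796 in UNT), as was 1 of 7 hindbrain and neural crest markers (315 to 413 CPM). Lower pluripotent markers were not particular to FPM_IC25. They were 3 of 8 at FPM_IC50 (1059 to 1297 CPM) and 3 of 8 at SRM_IC25 (1058 to 1159 CPM), where CYP26A1 was not called. At FPM_IC50 4 of 12 amnion and trophoblast markers were higher. Over all genes 14.2% were called at FPM_IC25, 13.6% at FPM_IC50 and 4.37% at SRM_IC25. The part of these cell types in the retinoid values was not tested, and in bulk RNA fewer cells of a type and less RNA per cell cannot be told apart.

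**Figure D5:**
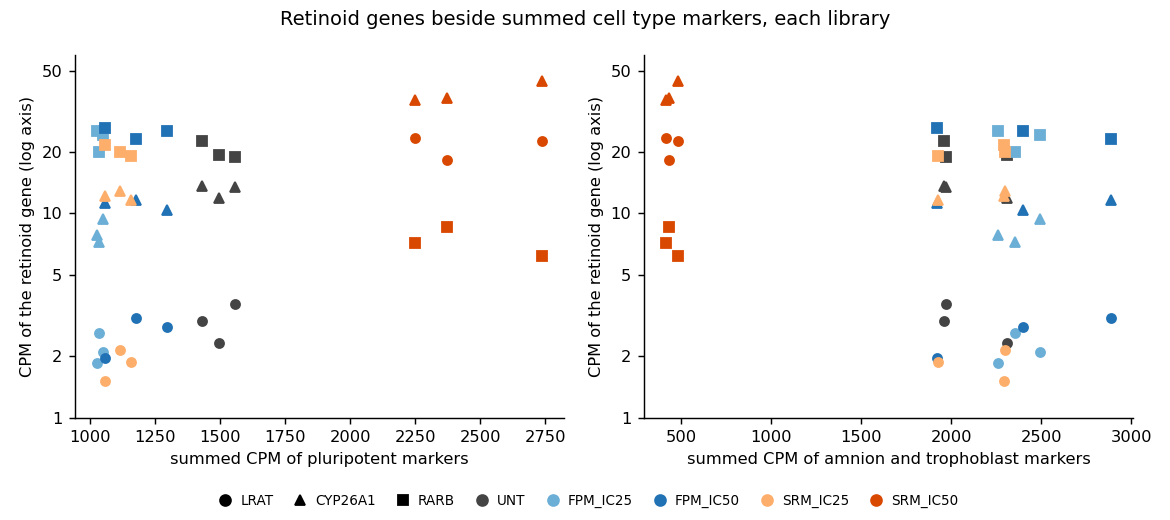
CPM of LRAT, CYP26A1 and RARB (y axis, log scale) against summed CPM of 8 pluripotent markers (left) and 12 amnion and trophoblast markers (right), 1 point per gene and library, coloured by group. The 3 SRM_IC50 libraries lie apart from the other 12 on both marker sums.

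The genes most like LRAT, CYP26A1 and RARB were sought by Pearson correlation of log2(CPM + 0.5) over the 9 UNT and SRM libraries, among 13606 protein-coding genes. These points fall into 3 SRM_IC50 libraries and 6 others, which they share with every gene that differs there, so r is only a description. For LRAT the 3 nearest were TDGF1, a Nodal co-receptor (r = 0.998), TUNAR (0.997) and SLC43A1, an amino acid transporter (0.995), and 239 genes had an r over 0.95. For CYP26A1 they were DUSP6, an ERK phosphatase (0.993), SLC43A1 (0.992) and PLAU, the urokinase gene (0.992), with 202 genes over 0.95. For RARB they were TMCC3 (0.995), MPZL1 (0.994) and GRHL1, an epithelial transcription factor (0.994), with 322 genes over 0.95. Over all 15 libraries the same 9 values of r lay between 0.924 and 0.993.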

How the data were processed

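Poly(A) RNA from 15 libraries was prepared with a directional kit, per the labels' protocols. The authors deposited whole-number counts per gene and FPKM values; per the submitters' processing notes, HISAT2 2.2.1, SAMtools 1.10, featureCounts (Subread 2.0.15), FastQC 0.11.7, DESeq2 and GRCh38 were used. For the annotation release and the strand setting, nothing is given in the sources used here; positions are from GENCODE 29. Members and lists were chosen with earlier results of these data known. Named beyond the 9 members are called list genes of at least 1 CPM (at most 8 each way) and the 3 nearest by correlation. RBP5, called at under 1 CPM, is named outside that rule. MEIS2, NCOA3 and values of genes not called were named after their values were seen. The values of 1 gene of the wider list, which enters its counts, are not reported here.

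Counts were fitted with edgeR 4.0.16 in R 4.3.3 (TMM, filterByExpr, robust quasi-likelihood, 5 group means, 10 residual degrees of freedom). Alternatives were DESeq2 1.42.0, its size factors, no filter, limma-trend 3.58.1 on log2(FPKM + 1) or log2(FPKM + 0.1) with FPKM of at least 1 in 3 libraries, a block on replicate number, a GC correction, opposite-strand restrictions, and left-out libraries. The fit was tested on simulated data with changes placed in SRM_IC50 against UNT. It recovered 41.8% of 1.5-fold (67 genes), 82.1% of 2-fold (67) and 97% of 4-fold changes (66). Those genes averaged above 1 CPM and were far fewer than the 3337 called at SRM_IC50, so rates in the data may differ. A gene that was not called is thus not shown to be unchanged. Replicate pairs correlated at 0.982 to 0.994, and all 15 libraries were counted. Floors cover counting error only, since PCR reads carry no molecular identifiers.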

Additional observations from a re-analysis of the deposited data

Results flagged for a closer look

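The SRM dose step (SRM_IC50 minus SRM_IC25) differed from the FPM dose step (FPM_IC50 minus FPM_IC25) by edgeR's interaction test (adjusted p under 0.05) for 5 of the 9 retinoid genes, where 14.6% of all genes were called. The log2 difference was 3.226 for LRAT, 1.248 for CYP26A1, -1.566 for RARB, -0.8317 for DHRS3 and 0.9073 for CRABP1. The same test called 12 of 50 other pathway genes, 24%, of which 11 are named by rule. RDH10 was called in 10 of 20 alternatives. Among enzymes and uptake genes the difference was -0.8713 for RDH10, 0.6343 for SCARB1 and -2.051 for ALDH1A1. Among targets it was -1.167 for HOXB2, -1.757 for CDX1, -2.34 for CDX2, -2.405 for MEIS1, 0.8557 for NR2F1, -0.7704 for NR2F2, -2.551 for TGM2 and 1.963 for RET. The doses of the 2 particles are not matched, and the FPM libraries stand apart in their antisense share, so these values set one particle's step beside the other's and no more.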

How the results depend on the processing

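Against UNT, the rises of LRAT (log2 1.45 to 3.00) and CYP26A1 (1.40 to 1.63) and the fall of RARB (-1.58 to -1.11) at SRM_IC50 were called in each of the 16, 17 and 16 alternatives run for them; LRAT's lowest value is on the log2(FPKM + 1) scale, which understates low genes. DHRS3 was called in 15 of 17 alternatives, CRABP1 in 10 of 16 and ALDH1A2 in 9 of 14. No called member changed sign. Depth limits ALDH1A2 most, at 9 counts in its shallowest library. Where the count of calls changed by more than 1.5 times, the cause was not tested, except that fewer genes or fewer samples were fitted where a setting says so.

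With 1 library left out, counts of called members ranged from 3 to 5 at SRM_IC50, 0 to 0 at SRM_IC25, 0 to 1 at FPM_IC50 and 1 to 1 at FPM_IC25, 5 to 6 between SRM doses, 0 to 0 between FPM doses, 3 to 5 for the dose-step test and 5 to 9 for the F test. Called genes in all ranged from 2510 to 3396, 0 to 793, 2126 to 3104, 2083 to 3070, 3755 to 5132, 0 to 2 and 1990 to 2833 in the same order without the F test, and the wider list from 13 to 16, 0 to 1, 0 to 2, 0 to 4, 16 to 21, 0 to 0 and 11 to 15.

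Of those it tested at SRM_IC25, DESeq2 called 2007 of 11495 genes, 1 of 7 members and 4 of 31 list genes. It also called 1 member at FPM_IC50, and 37 genes and 1 list gene between FPM doses. Without a filter on low counts 2 list genes were called at SRM_IC25, 2 members (CRABP1 and CRABP2) and 4 list genes at FPM_IC50, 8 list genes at FPM_IC25, and 116 genes, 1 member and 2 list genes between FPM doses. With limma-trend on log2(FPKM + 1), 1 list gene was called at SRM_IC25, 2 members at FPM_IC25 and 0 genes between FPM doses; on log2(FPKM + 0.1) these were 1 list gene and 0 genes for the first and the last. Unfiltered, limma-trend called 424 genes at SRM_IC25, 29 between FPM doses and 3 members for the dose-step test. The GC correction gave 0 genes at SRM_IC25, 2 members (RARB and CRABP1) at FPM_IC50, 0 list genes at FPM_IC25 and 4 genes between FPM doses. Without the 6 FPM libraries 0 genes were called at SRM_IC25, and 5 members at SRM_IC50.

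The fit restricted to genes that lack any opposite-strand neighbour within 5 kb tested 4239 genes, 15 list genes and 2 members, CYP26A1 and DHRS3. Of these, 1051 genes, 2 members and 6 list genes were called at SRM_IC50, and 65 genes at SRM_IC25. Far fewer were called at FPM: 1 gene and 0 list genes at FPM_IC50, and 35 genes and 0 list genes at FPM_IC25. Between SRM doses 1369 genes, 2 members and 7 list genes were called, and between FPM doses 7 genes. The dose-step test called 808 genes, 2 members and 6 list genes, and the F test 2 members.

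Same-numbered libraries of different groups correlated between -0.14 and 0.44 in their deviations (median 0.16), and differently numbered ones between -0.44 and 0.27 (median -0.08). A best match with the own number, found for 9 of 15 libraries, is a hint from the data and not the design. The numbers were not taken to pair the samples, since the labels name nothing that they share and not every same-numbered pair was above 0.1. With the replicate number as a block, 2718 genes, 1 member and 4 list genes were called at SRM_IC25, 2 members and 6 list genes at FPM_IC50, 4079 genes and 9 list genes at FPM_IC25, 34 genes and 1 list gene between FPM doses, and 19 list genes for the dose-step test; at SRM_IC50 6 members were called, as without the block. The members gained with the block were STRA6 at SRM_IC25 (adjusted p = 0.0487) and CRABP1 (0.00151) and CRABP2 (0.0261) at FPM_IC50.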

Other observations

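The motif pair spaced by 5 occurred in the windows of 29 genes, RARB and CYP26A1 included, of which 19 were in the table and 12 were tested. At SRM_IC50 against UNT 1 was higher (CYP26A1) and 2 were lower (RARB and COL24A1, a fibrillar collagen gene, log2 -1.41, edgeR adjusted p = 0.00576). At FPM_IC25 against UNT 1 was called, CYP26A1, which was lower. Genes with the pair therefore moved in both directions, and their number is too small to set against the 17.6% called among all genes.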
